A study of Mus musculus with 2 samples.

Results

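Splice junctions whose ends lie 100 kb or more apart were taken from the deposited junction table of mouse testis, with the end minus the start of each record as its span and with records of every tag kept. They made up 56279 of the 649521 junction records on the mm9 assembly (8.66%, 95% exact binomial interval 8.60 to 8.73), and 297175 of the 45021975 junction reads (0.660%). Intervals on shares throughout cover counting error only, and reads without molecular identifiers are not independent molecules. Each record carries a strand, a count of reads for each library, and the tags A and C, which are 0 or 1 and whose meanings no source used here gives. Records with A = 1 are called tagged below and those with A = 0 untagged. The long set held 725 tagged records, 12388 untagged records with C = 1 and 43166 untagged records with C = 0.

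The study sequenced poly(A) RNA over 200 nucleotides, depleted of ribosomal RNA, from testes of 8-week-old male C57BL/6J littermates. It has 1 group of 2 stranded libraries, read on an Illumina GAIIx as paired reads of 76 bases, with no treatment, mutant or other control. The libraries are numbered as biological replicates and come from separate biosamples, but carry the same donor identifier, so whether they stand for 2 animals is not settled by the labels. Spread between them may therefore be technical, and no test between conditions can be made.

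When a gene is transcribed, the spliceosome joins the end of one exon (the donor side) to the start of a later one (the acceptor side) and removes the intron between them. Most mouse introns are short, but genes for cell adhesion, synaptic and ion channel proteins are known for introns that take RNA polymerase a long time to cross. A read that spans a splice site is placed by finding where its 2 parts match the genome, and in families of near-identical gene copies, which are common among testis genes, the same short sequence occurs at several places. The mouse testis is known for transcribing an unusually large share of the genome, most of it in germ cells.

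The sequences below show what a read across a long junction holds. They are the coding bases on either side of the junction, read 5′ to 3′ from GENCODE M21 transcripts (mm10), with the 30 bases of the upstream exon in lower case and the 30 bases of the downstream exon in capitals. The first 3 belong to tagged junctions: Pebp4 is shown for its reads, Spag16 as the widest of the 10 with most reads, and Ctnna3 as the one with most reads among the 10 longest. The position of each record is given on mm9, and no coordinate was converted between assemblies. Names come from the span, which had to equal the length of an annotated M21 intron on the same chromosome and strand that belongs to 1 gene.
Pebp4, chr14:70251562-70363246, plus strand: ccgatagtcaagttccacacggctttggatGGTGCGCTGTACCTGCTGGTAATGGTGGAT
Spag16, chr1:70043483-70311479, plus strand: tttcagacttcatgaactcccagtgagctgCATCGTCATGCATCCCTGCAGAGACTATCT
Ctnna3, chr10:63315574-63713445, plus strand: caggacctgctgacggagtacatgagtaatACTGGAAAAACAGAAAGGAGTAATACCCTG

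The next set comes from untagged junctions whose 2 ends lie in different genes of one family. For each record the first line is the ordinary coding junction of the copy at one end and the second line that of the copy at the other end, so that the reader can see how far the copies are alike at the joined bases. For the Srp54 record at chr12:56201051-56352630, plus strand, and the Zfp607 record at chr7:28477554-28648407, plus strand, the copies were identical at all 60 bases. The donor end of the Srp54 record was named Srp54a or Srp54b, and the bases of Srp54a are printed for it. For the Tcp10 record at chr17:13260612-13557058, plus strand, they were identical at 59, and for the Gstm record at chr3:107734309-107847554, minus strand, at 54.
Srp54a: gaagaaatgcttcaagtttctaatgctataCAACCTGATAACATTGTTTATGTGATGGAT
Srp54c: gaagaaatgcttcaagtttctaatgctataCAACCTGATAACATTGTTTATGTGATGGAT
Zfp607b: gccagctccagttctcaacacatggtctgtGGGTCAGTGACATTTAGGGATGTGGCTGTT
Zfp607a: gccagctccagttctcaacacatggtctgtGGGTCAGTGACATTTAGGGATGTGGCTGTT
Tcp10b: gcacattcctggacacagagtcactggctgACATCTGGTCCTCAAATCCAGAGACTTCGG
Tcp10c: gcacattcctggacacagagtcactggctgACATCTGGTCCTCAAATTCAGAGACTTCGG
Gstm4: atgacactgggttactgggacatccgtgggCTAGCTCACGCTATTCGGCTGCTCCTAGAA
Gstm7: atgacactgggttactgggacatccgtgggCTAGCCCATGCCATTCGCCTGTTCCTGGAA

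Over all junctions the libraries held 21978582 reads (library 1) and 23043393 reads (library 2). The tissue label was checked in the gene tables: mean levels of 6 germ cell markers ran from 409 to 25659 TPM (transcripts, scaled to a fixed total per library), and Leydig and Sertoli cell markers were all above 1 TPM. The 4 nervous tissue markers summed to 2.97 TPM in library 1 and 3.37 in library 2, most of it Mbp at 2.39 and 2.52, and their part in the neuronal genes named below was not tested. Markers of the epididymis, the duct beside the testis, summed to 461 TPM in library 1 and 0.20 TPM in library 2, nearly all of it Crisp1 at 454 and 0.20 TPM. Adam7 stood at 6.87 and 0 TPM, Lcn5 at 0.11 and 0, and Lcn8 at 0.06 and 0. Junctions of Crisp1 had 18728 reads named R1 and 10 named R2, beside 22265 and 10 expected counts in the gene tables of libraries 1 and 2, so R1 and R2 were read as libraries 1 and 2. Skeletal muscle markers summed to 18.8 TPM in library 1 and 1.88 in library 2. Acta1 (13.3 and 0.66) and Ckm (5.47 and 1.20) were higher in library 1, and Myh4 stood at 0.03 and 0.02 TPM. The part of epididymal or muscle RNA in differences between the libraries was not tested.

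Tagged long junctions had far more reads per record than untagged ones. Their median was 6 reads (quartiles 2 and 23), against 1 read in both untagged classes and 37 reads in tagged junctions under 100 kb. Reads in both libraries were found for 470 of 725 tagged records (64.8%, 61.2 to 68.3), 3509 of 12388 untagged C = 1 records (28.3%, 27.5 to 29.1) and 2278 of 43166 untagged C = 0 records (5.28%, 5.07 to 5.49). A single read supported 17.2% of tagged, 51.6% of untagged C = 1 and 81.6% of untagged C = 0 records. Among junctions under 100 kb the share seen in both libraries was also highest for tagged records (87.0%) and lowest for untagged C = 0 records (9.98%).

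**Figure D1:**
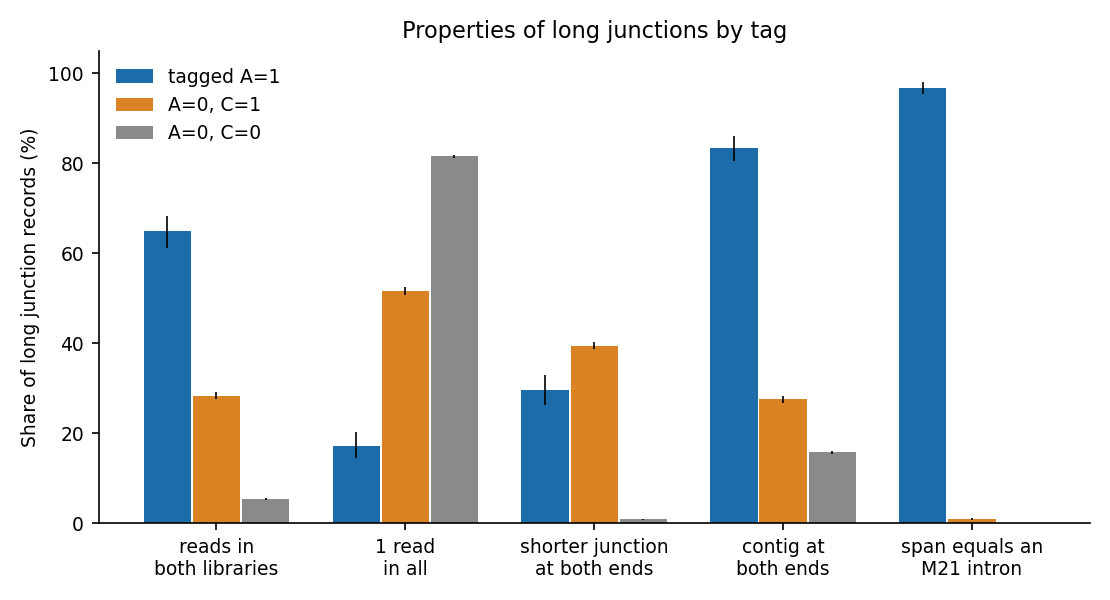
Share of long junction records (%, bars, with 95% exact binomial intervals) that had each of 5 properties, for the 725 tagged A = 1 records, 12388 records with A = 0 and C = 1, and 43166 records with A = 0 and C = 0. Tagged records stand at 64.8% for reads in both libraries and 96.8% for a span equal to an annotated intron, and C = 0 records at 81.6% for a single read.

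The tag A went with only 1.29% of the long records (1.20 to 1.38), against 30.2% of the shorter ones. By reads the tagged share was larger: 41279 of the 297175 long reads (13.9%), of which 20200 came from library 1 and 21079 from library 2. Untagged C = 1 records held 168527 reads (56.7%) and untagged C = 0 records 87369 (29.4%). Untagged records were the majority by number in the long set and among the shorter junctions (69.8%). By reads they were the majority in the long set only, since tagged records held 91.4% of the shorter junctions' reads. Strands were even, with 28005 records on the plus and 28274 on the minus strand.

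The spans differed by tag in more than their medians, which were 138153 bases for tagged records and 200516 and 200543 bases for untagged C = 0 and C = 1 records. Tagged records thinned out, from 428 at 100 to 150 kb to 60 at 200 to 250 kb and 4 at 450 to 500 kb, and none reached 500 kb. Untagged C = 0 records stayed near level up to 250 kb, with 11008 at 100 to 150 kb and 10329 at 200 to 250 kb, and then dropped to 2466 at 250 to 300 kb. In bins of 5 kb the drop fell at 250 kb: there were 1076 records with C = 0 from 245 to 250 kb and 211 from 250 to 255 kb. A second step came at 500 kb, with 190 records from 495 to 500 kb, 73 in the next bin and 18 in the one after. Records with C = 1 stepped down at 250 kb as well, from 205 to 82, while tagged records numbered 4 on each side. Untagged records of 500 kb or more numbered 1969, and 128 of them spanned 1 Mb or more. No source used here names the program that made the records, and its part in the steps was not tested.

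**Figure D2:**
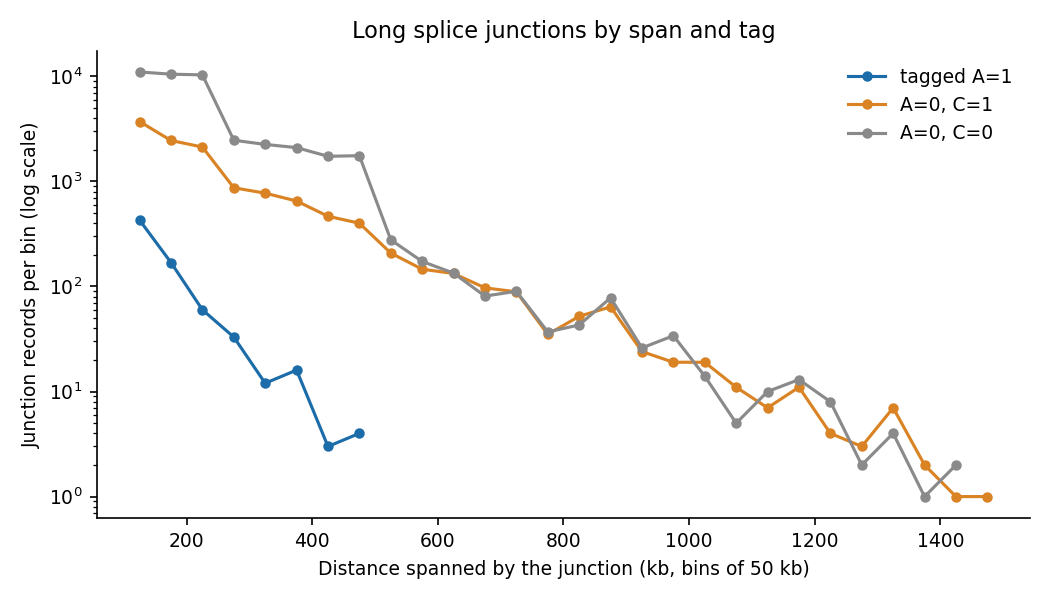
Number of junction records (log scale) per 50 kb of span, from 100 kb to 1500 kb, for tagged A = 1 records and the untagged classes; empty bins are left out. The C = 0 line drops from 10329 to 2466 records at 250 kb and again at 500 kb, where the tagged line ends.

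At the 100 kb threshold itself the records were thin. The 3 just inside spanned 100001, 100002 and 100003 bases, were untagged and had 1 read each. The 3 just outside spanned 99998, 99990 and 99988 bases, were also untagged and had 1, 2 and 1 reads. The shortest tagged member was the 100079-base intron of Cox16, an assembly factor of cytochrome c oxidase, with 6 reads in library 1 and 12 in library 2. The longest tagged record outside spanned 99904 bases and had 8 reads.

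Of the 725 tagged records, 702 had a span exactly equal to an annotated M21 intron on their chromosome and strand (96.8%, 95.3 to 98.0), and none equalled one on the opposite strand. For 698 the length belonged to 1 gene, and these lay in 513 genes, 498 of them protein coding, 6 lincRNA and 3 antisense. A second naming, from runs of an intron, an exon and an intron of the right lengths, could be had for 632 of the 698 and included the same gene in 632. It rests in part on the same lengths and is not independent of the first. The intron was the first of at least 1 transcript in 314 of 698 records (45.0%). Over all annotated introns on these chromosomes, 50.7% of the 2172 of 100 kb or more and 29.1% of the 282048 shorter ones were first introns in that sense.

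The tagged junction with most reads lay in Pebp4, a member of the phosphatidylethanolamine-binding protein family. It spanned 111685 bases and had 2896 reads in library 1 and 2876 in library 2. The level of the gene was 290 ± 16.1 TPM (SD, n = 2 libraries). The long junction carried 99.3% of the junction reads at its donor site and 99.7% at its acceptor site.

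Other members of the top 10 had fewer reads. Asap1, an Arf GTPase-activating protein, had 761 and 591 reads across 103792 bases at chr15:64040119-64143910. A junction of 114304 bases at chr10:101621694-101735997 had 565 and 526 reads, and its acceptor end was named Mgat4c, a glycosyltransferase, but its span matched no M21 intron. Rnls, the flavoprotein renalase, had 516 and 520 reads across 179718 bases at chr19:33277139-33456856. Library 1 was the higher in Asap1 and at the chromosome 10 junction, and the libraries were nearly level in Rnls.

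Nr6a1, the germ cell nuclear factor, had 394 and 446 reads across 112165 bases. Spag16, a protein of the axoneme's central apparatus, had 351 and 388 reads across 267997 bases, the widest span of the 10, and a second intron of 230859 bases with 286 and 318 reads. Chchd6, of the mitochondrial cristae-organising complex, had 346 and 360 reads across 100113 bases, and Nxn, nucleoredoxin, 318 and 361 across 120109 bases. In this group library 2 was the higher in every case by raw count, as it was over all junctions. The 10 together held 16916 reads, 41.0% of all tagged long reads.

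**Figure D3:**
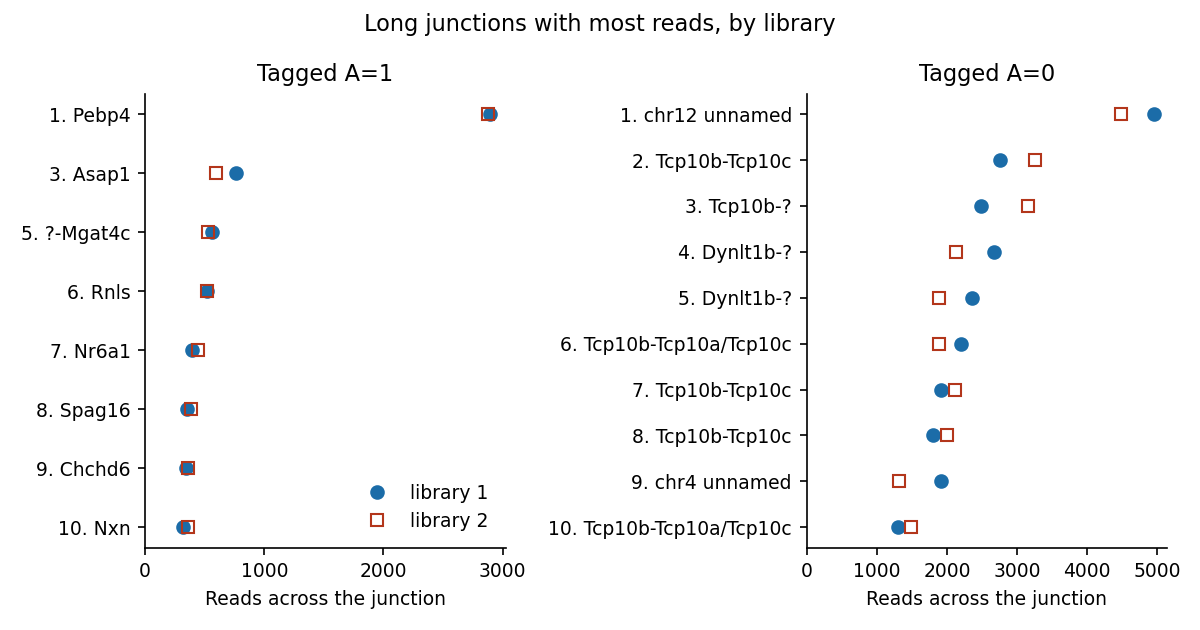
Reads across 8 of the 10 tagged (left) and the 10 untagged (right) long junctions with most reads, with library 1 as filled circles and library 2 as open squares; a question mark stands for an end that could not be named. Both libraries lie close together for the tagged ones, from 2896 and 2876 reads in Pebp4 down to 318 and 361 in Nxn, and 6 of the 10 untagged ones start in Tcp10b.

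Below these came genes of several roles. Among the next 30 by reads, chosen after their values were seen, were Cdyl, a chromodomain protein (284 and 346 reads), Msi2, an RNA-binding protein of the Musashi family (218 and 365), Fto, an RNA demethylase (270 and 263), and Bbs9, a subunit of the ciliary BBSome (126 and 168). Agbl4, a cytosolic carboxypeptidase that removes glutamate from tubulin, had 3 records in this range, with 222 and 323, 210 and 217, and 145 and 139 reads. Across the 725 tagged records the counts of the libraries followed each other (Pearson r = 0.86 on log2 counts plus 1, Spearman rho = 0.74, a description over junctions that share 2 libraries).

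The longest tagged junctions had few reads. Kcnd2, a voltage-gated potassium channel, had the longest, 496721 bases at chr6:21167414-21664134, with 0 and 2 reads. Macrod2, an ADP-ribose hydrolase, followed with 491062 bases at chr2:140849878-141340939 and 10 and 8 reads. Ctnna2, an alpha-catenin, had 461237 bases with 4 and 12 reads, and the scaffold gene Magi2 451063 bases with 7 and 11 reads. All 4 were thus at 18 reads or fewer.

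The other 6 of the 10 longest spanned 396454 to 443332 bases. Ctnna3, a second alpha-catenin, stood out among them with 88 and 134 reads across 397872 bases, in a gene at 32.5 ± 1.88 TPM (SD, n = 2). Mageb18, of the MAGE family on the X chromosome, had 8 and 12 reads across 397650 bases at a level of 0.41 ± 0.22 TPM (SD, n = 2). Grip1, a glutamate receptor-interacting scaffold, had 2 and 11 reads across 443292 bases, in a gene at 72.3 ± 0.90 TPM (SD, n = 2). Rtl4 and Kcnb2 had 2 and 1 reads in all, and 1 record on chromosome 12 with 2 reads had no named gene.

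Among the 309 tagged records with at least 10 reads, library 2 was the higher in 3 of the 5 with the most unequal counts. Fat3, an atypical cadherin, had 0 and 10 reads. Ugt1a7c, a glucuronosyltransferase, had 1 and 25, while another of its tagged junctions, of 119065 bases, had 19 and 13. Ntn1, the guidance cue netrin-1, had 18 and 1. Pdgfc, a growth factor, had 2 and 16, and a 147768-base junction of Chchd6 had 50 and 6. The Chchd6 junction shared its donor site with the 100113-base one above and took 7.34% of that site's reads. For the 309 as a whole, the median share of reads from library 2 was 50.2%. The gene level of Chchd6 was 307 TPM in library 1 and 305 in library 2, and that of Ugt1a7c 3.79 and 5.61.

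Tagged junctions were in most cases the main path between their splice sites. At the donor site the median record held 99.8% of all junction reads, and at the acceptor site 92.9%. In 198 of 725 neither site had a read in any other junction. Among the 309 with at least 10 reads, 270 held over 50% of donor reads and 255 over 50% of acceptor reads. Untagged C = 1 records held a median of 33.3% at the donor and 50% at the acceptor site.

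Several genes held more than 1 tagged long junction. Macrod2 had 7 with 152 reads in all, Cdh13, a cadherin without a transmembrane domain, 6 with 231 reads, and Agbl4 6 with 1610 reads. Ctnna3 had 5, with 802 reads (344 and 458). In all, 389 genes had 1 such record, 124 had 2 or more and 17 had 4 or more.

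Read the other way, 823 of the 2172 annotated introns of 100 kb or more were matched by a long junction of any tag (37.9%, 35.8 to 39.97). The share rose with the level of the gene, from 4 of 113 introns (3.54%, 0.97 to 8.82) in genes listed at 0 TPM to 190 of 366 (51.9%, 46.7 to 57.1) in genes above 10 TPM. It fell with length, from 41.6% (38.7 to 44.5) at 100 to 150 kb to 22.4% (16.7 to 29.0) at 300 kb and more. Levels and junctions come from the same libraries, so these shares describe them and are not independent of depth. Over 694 tagged records with a measured gene, log2 reads and log2 TPM plus 1 had r = 0.57 and rho = 0.55, again over junctions that share both libraries.

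**Figure D4:**
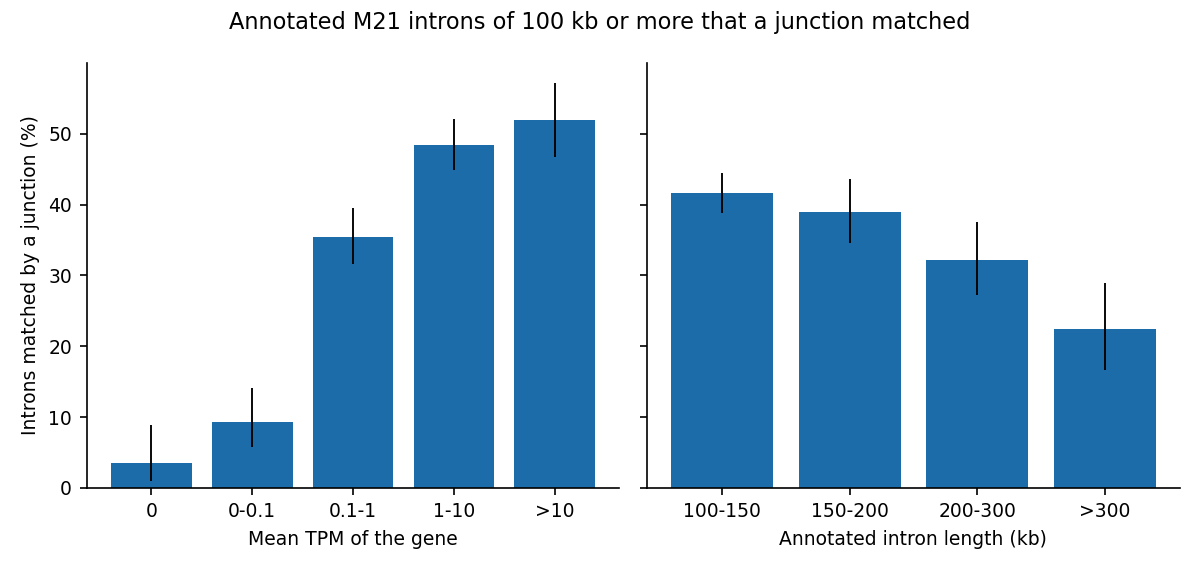
Share of annotated M21 introns of 100 kb or more whose length was equalled by a long junction on the same chromosome and strand (%, bars, with 95% exact binomial intervals), by mean TPM of the gene (left) and by intron length (right). The share goes from 3.54% in genes at 0 TPM to 51.9% above 10 TPM, and from 41.6% at 100 to 150 kb to 22.4% above 300 kb.

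Place in the gene differed between matched and unmatched long introns. Of the 823 matched, 74.7% (71.6 to 77.7) lay between coding bases in some transcript, 13.7% upstream of the start codon and 11.4% in transcripts with no coding part. Of the 1349 unmatched, 45.2% (42.5 to 47.9) were coding and 32.4% in transcripts with no coding part. Median gene levels were 2.67 TPM for the matched and 0.725 TPM for the unmatched. Exon ends looked alike at every length: the upstream exon ended in AG for 56.5% of matched long, 54.8% of unmatched long and 55.1% of shorter introns. Long coding introns fell after the first base of a codon (phase 1) in 246 of 615 matched cases (interval 36.1% to 44.0%) and 41.8% of unmatched ones, against 33.0% of the 200789 shorter coding introns.

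A list of 60 genes known for very large introns was looked up, of which 59 were in the annotation and in the gene tables. The list was drawn up with earlier results of these data known. Of the 59 genes, 48 had at least 1 long junction, 45 of them a tagged one, and together they held 117 records with 3523 reads. Over all genes with an annotated intron of 100 kb or more, 589 of 1126 had at least 1 such intron matched by length. Of the 303 annotated introns of 100 kb or more in the listed genes, 118 were matched, beside 823 of 2172 over all genes. Of the 59, 38 stood at 1 TPM or more, and 33 of those 38 had a long junction, as did 15 of the genes under 1 TPM.

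Reads across long introns and gene levels did not go together in every gene of the list. Sox5, a transcription factor, stood at 116 ± 15.3 TPM (SD, n = 2) and had 3 long junctions with 4 and 1 reads. Cntnap2, a neurexin-family adhesion protein, stood at 42.0 ± 0.19 TPM and had 1 long junction with 1 and 2 reads. Galntl6, a glycosyltransferase-family gene, stood at 13.1 TPM in library 1 and 16.9 in library 2 and had none. In contrast, Pcdh9, a protocadherin, stood at 0.76 ± 0.11 TPM and had 1 long junction of 310793 bases with 70 and 61 reads. Sox6, a relative of Sox5, stood at 28.6 ± 0.85 TPM, with 128 and 108 reads across 142284 bases. Dmd, the dystrophin gene, had 5 long junctions with 9 and 8 reads, the longest of 209572 bases, at 3.60 ± 0.26 TPM.

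Some related genes held a long intron at a like place in their coding sequence. The 60 coding bases at the junction were compared between 539 tagged junctions of 417 genes, a total of 144806 pairs of junctions from different genes. The median pair was identical at 16 of 60 bases. Pairs identical at 36 or more numbered 36, of which 26 lay outside the Ugt1a and Pcdha clusters, where alternative first exons share the later ones. These 26 linked 24 pairs of genes. In 24 of the 26 the genes lay on different chromosomes, and in 26 of 26 the intron broke the codon at the same phase. Equal phase largely follows from choosing pairs by alike coding bases at the junction and is not a separate result. The limit of 36 bases was chosen with the data at hand, and alike bases are a description of these genes. The pairs below are examples from the 26, chosen after their values were seen. Both members of every compared pair carry junction reads, since only tagged records were compared. Ctnna2 is the partner of the Ctnna3 junction printed above.
Opcml, chr9:28211998-28482718, plus strand: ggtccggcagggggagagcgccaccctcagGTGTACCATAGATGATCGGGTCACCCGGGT
Ntm, chr9:28986840-29219140, minus strand: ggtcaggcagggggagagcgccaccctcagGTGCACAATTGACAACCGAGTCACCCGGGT
Prkca, chr11:108053527-108201959, minus strand: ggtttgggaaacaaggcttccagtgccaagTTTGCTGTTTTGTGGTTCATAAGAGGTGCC
Prkcb, chr7:129434059-129568472, plus strand: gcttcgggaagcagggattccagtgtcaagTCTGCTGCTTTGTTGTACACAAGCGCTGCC
Ctnna2, chr6:77093938-77555174, minus strand: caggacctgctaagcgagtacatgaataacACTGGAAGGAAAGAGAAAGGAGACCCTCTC

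Reads in this paragraph are totals over both libraries. Opcml and Ntm, adhesion proteins of one family, were identical at 52, with 18 reads in Opcml and 4 in Ntm, the latter all from library 1. The protein kinase C genes Prkca and Prkcb were identical at 47, and both introns lay in codon 69, with 15 reads in Prkca and 12 in Prkcb. Ctnna3 and Ctnna2 were linked at more than 1 place. Their 397872-base and 461237-base introns, in codons 350 and 353, were identical at 42 bases, and introns of 148225 and 133029 bases, in codons 428 and 431, at 43. Macrod1 and Macrod2, both ADP-ribose hydrolases, were identical at 43 bases around introns of 119372 and 372365 bases, with 403 reads in Macrod1 and 39 in Macrod2.

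Untagged junctions seldom equalled an annotated intron in length. Since the meaning of the tag A is not given, the tag and this match may not be independent. Only 109 of the 12388 with C = 1 equalled an annotated M21 intron in length on the same strand (2 on the opposite strand), and only 12 of the 43166 with C = 0 (8 on the opposite strand). The 109 with C = 1 included 108 named by 1 gene, in 84 genes, and 61 of the 108 had reads in both libraries. The one with most reads lay in Zfand3, a zinc finger protein, with 160 and 117 reads across 130014 bases. It took 11.2% of the reads at its donor site. The gene tables were made with annotation M4, while these names come from the later M21.

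Records with C = 1 tended to join splice sites that shorter junctions also used. Of them, 9080 (73.3%, 72.5 to 74.1) shared at least 1 end with a shorter junction and 4889 (39.5%, 38.6 to 40.3) shared both, against 9.07% and 0.90% of C = 0 records. Tagged records stood at 65.1% and 29.5%. Where only tagged shorter junctions were counted, the shares fell to 34.0% and 9.32% for C = 1 records, 23.3% and 6.62% for tagged records, and 1.71% and 0% for C = 0 records. In 1290 C = 1 records (10.4%, 9.88 to 11.0) a shorter junction at one end and a shorter junction at the other had the same length within 5 bases. The same held for 177 C = 0 records (0.41%) and 1 tagged record.

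The family with most reads was Tcp10, genes of the t-complex on chromosome 17 that are transcribed in male germ cells. In all, 15 untagged records ran from a donor site in Tcp10b to an acceptor site named Tcp10c, or Tcp10a or Tcp10c, and held 26016 reads. The top one, 298306 bases at chr17:13262639-13560944, had 2757 and 3255 reads. A further 3, of 4090, 4033 and 3794 reads, spanned 294109, 293900 and 296447 bases. The spans of the 15 lay between 293373 and 299008 bases. At these sites the long junction was one of several: the top record took 27.9% of the reads at its donor site and 45.0% at its acceptor site.

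Dynlt1b, one of several copies of a dynein light chain gene on the same chromosome, gave the next family. Its donor site at the start of chr17:6429387-6603382 joined an acceptor 173996 bases away with 2669 and 2132 reads, and one 378817 bases away with 2352 and 1887. These acceptor ends could not be named. They took 34.6% and 30.6% of the reads of 1 donor site, and in both library 1 was the higher.

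Over all untagged records, 902 had both ends named. In 562 the names differed, and these held 38180 reads. In 324 the names were the same, with 10634 reads, and in 16 they overlapped. The 562 fell into 327 ordered pairs of genes. After Tcp10 came Srp54a or Srp54b to Srp54c, copies of a signal recognition particle subunit (7 records, 627 and 833 reads), and the zinc finger gene Zfp607b to Zfp607a (3 records, 287 and 308), to Zfp59 (2, 278 and 306) and to Zfp626 (2, 239 and 257). Others were Plac9b or Gm9780 to Plac9a (6 records, 299 and 230), the dynein heavy chain genes Dnah7b to Dnah7c (4, 103 and 184), and the glutathione transferases Gstm4 to Gstm7 (4, 130 and 145). These pairs were chosen after their values were seen. Some records of a family had equal counts: the Plac9a records of 141509 and 281123 bases each had 107 and 89 reads. Whether the same reads were counted at both places was not tested. Read totals over records of a family may therefore count a read more than once.

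For 349 of the 562 records the 60 coding bases of both copies' own junctions could be compared. The copies were identical in 85, differed at no more than 3 bases in 219 and at no more than 6 in 263, with a median of 2. In 53 the compared junctions differed at more than 20 bases. Such values do not tell copies that differ in sequence from junctions that join different exons. The Tcp10 record with most reads was one of the 53, with 35 of 60 identical bases. There the upstream exon bases were the same in both junctions, and every difference lay in the downstream exon. The upstream bases of Tcp10b followed by the downstream bases of Tcp10c are therefore the same 60 bases as the ordinary junction of Tcp10c. These downstream bases also occur in Tcp10b, at its junction that starts chr17:13263811-13560944. Many differences between the copies' own junctions thus do not by themselves set a long junction apart from an ordinary junction. Where both copies hold the same bases, a read across the long junction and one across the ordinary junction of a copy cannot be told apart by these bases. How the authors placed reads that match several copies is stated nowhere in the labels or files.

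Records with C = 0 held the junction with most reads of the whole long set. It spanned 142718 bases at chr12:34505011-34647728, minus strand, and had 4955 and 4479 reads. Its ends had almost no other junction, with 9439 reads at the donor and 9434 at the acceptor site. Both ends lay in contigs, stretches of transcribed sequence listed by the authors, with expression signals of 405 and 403, where the median contig stood at 0.15. The record at chr4:121870932-122132563 had 1923 and 1324 reads, and the one at chr10:59190156-59498998 had 1322 and 990. Neither site of these last records had a read in any other junction. None of the 3 had a named end. A further column of the table, which is unnamed and holds a whole number never above the reads, stood at 19 for the chromosome 12 record, 263 for the chromosome 4 record and 61 for the chromosome 10 record. For Pebp4, with 5772 reads, it stood at 2654, and for Rnls, with 1036 reads, at 651. The meaning of this column is stated nowhere in the labels or files.

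Apart from these few, C = 0 records were sparse. Only 401 of 43166 had 10 or more reads (0.93%) and 26 had 100 or more. A record at the same place on the opposite strand was present for 1142 (2.65%), all of them C = 0, and for none of the other classes. Contigs on the same strand lay at both ends of 83.4% (80.5 to 86.1) of tagged records, 27.5% (26.7 to 28.3) of untagged C = 1 records and 15.7% (15.4 to 16.1) of C = 0 records.

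The longest untagged records had almost no support. The longest of all, 1811503 bases at chrX:144484198-146295700, had 1 read, as had those of 1665839, 1504516 and 1483250 bases, and the fifth, of 1441619 bases, had 4 reads in library 1 alone. Among records with reads in both libraries, the longest spanned 1372719 bases at chr14:5358057-6730775 (2 and 6 reads), followed by 1283311 bases on chromosome 7 (1 and 10). The next 3, of 1183589, 1183391 and 1183390 bases, lay on the X chromosome with starts from 120119600 to 120125908. The middle one had 19 and 20 reads, and the others 4 and 2 in all.

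By chromosome, tagged and untagged records were spread differently. Chromosome 14 had 6114 long records, the most of any, of which 44 were tagged and 2903 were untagged with C = 1, and 19.2% of all its junction records were long. Chromosomes 4, 7 and 17 followed with 4879, 4023 and 3607. The most tagged records were on chromosomes 2, 6 and 1 (57, 54 and 50). As a share of a chromosome's tagged junctions of any span, long ones were highest on chromosome 13 (0.768%). Chromosomes 18, 14 and 6 followed with 0.681%, 0.659% and 0.630%, and chromosomes 1 and 2 stood at 0.452% and 0.366%. The Y chromosome had no tagged record and 152 untagged ones among its 608 junction records. Reads were highest on chromosome 17 with 63897, where the Tcp10 and Dynlt1b records lie.

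**Figure D5:**
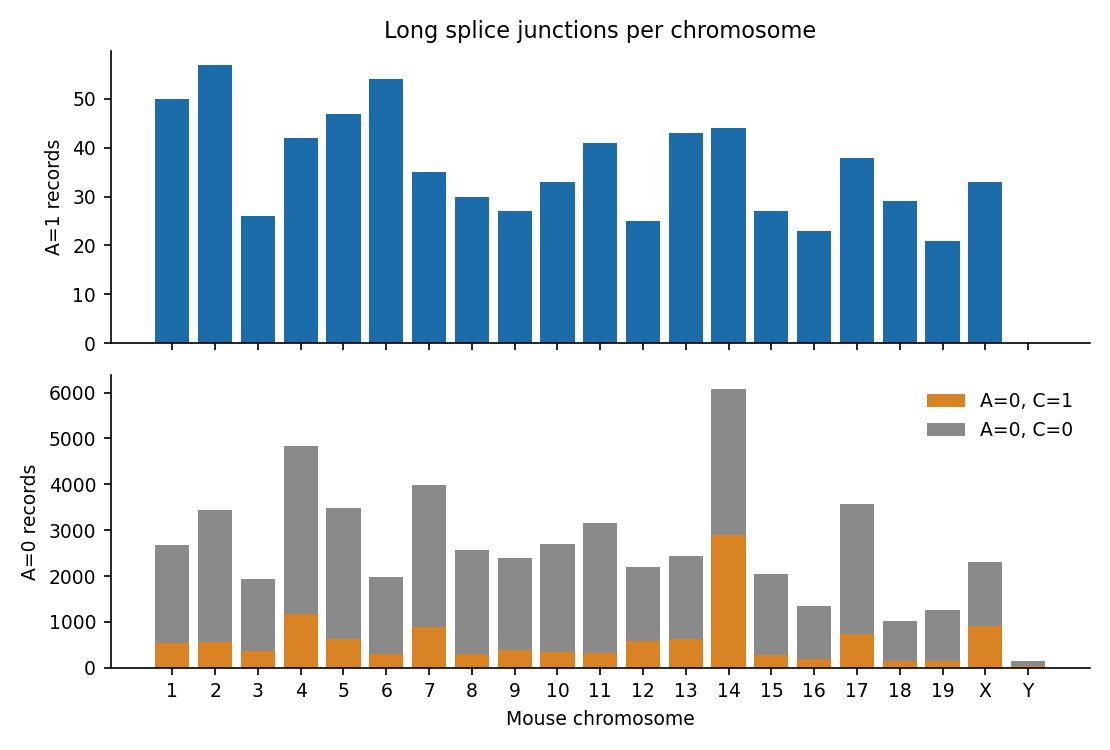
Number of long junction records per chromosome, tagged A = 1 above and untagged A = 0 below, the latter stacked by the tag C. Chromosome 14 reaches 6114 records in all but 44 tagged ones, while chromosome 2 has the most tagged records, 57. Numbers are not scaled to the junctions of each chromosome.

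Untagged records also crowded into a few places. Of 2557 stretches of 1 Mb with at least 1, the 10 fullest held 6520 records, 11.7% of the untagged records and 24.8% of their reads. Of these, 4 lay between 3 and 8 Mb of chromosome 14. The stretch from 13 to 14 Mb of chromosome 17, with the Tcp10 genes, was not among the 10 and held 446 records and 33627 reads, 13.1% of untagged long reads. The stretch from 6 to 7 Mb of chromosome 17, with Dynlt1b, was among them and held 778 records and 19991 reads.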

How the data were processed

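Junctions were used as the authors deposited them, on mm9 per the deposited readme, in 1 table for both libraries. Each deposited record holds a read count, equal to R1 plus R2 in all 649521 records, and a fraction not named in the file, from the authors and used only as a filter. The deposited contigs (1057671, mm9) hold a signal whose scaling no source used here states. The deposited gene tables hold expected counts and TPM, per the file headers, on mm10 with annotation M4, per the deposited readme. Aligner, junction caller and quantifier: not given in the sources used here.

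A record counted as long with an end minus start of at least 100000 bases. Members and gene lists were chosen with earlier results of these data known. A gene was named where the span equalled an intron of GENCODE M21 on the same chromosome and strand belonging to 1 gene. Ends were named where consecutive tagged junctions and the exon between them (up to 10000 bases) had the lengths of a transcript. Named by rule were the 10 tagged records with most reads, the 10 longest and the 5 most unequal between libraries with at least 10 reads, the 10 untagged records with most reads, the 5 longest and the 5 longest in both libraries, and 3 on each side of the threshold. Others were chosen after their values were seen.

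Shares carry exact (Clopper-Pearson) 95% intervals. No p-value was computed, since there is 1 group. Alternatives were a span of 200 kb, at least 2 reads, a fraction of at most 0.1, each library alone, and other rules for shared sites, contigs and lengths. Scripts used Python 3.11.15, pandas 2.3.3, numpy 2.4.6, scipy 1.17.1 and matplotlib 3.10.9 and were tested on simulated junctions. Sequences come from M21 transcripts. Since no mm9 genome was used here, no intron sequence is printed. Of the junctions that the naming rule selects, 2 are not reported here.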

Additional observations from a re-analysis of the deposited data

How the results depend on the processing

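The size and make-up of the long set moved with nearly every alternative. A span of at least 200 kb left 28017 records, of which 0.457% were tagged, 22.7% shared a splice site with a shorter junction, 16.3% had contigs at both ends and 0.532% equalled an annotated intron, while the share in both libraries (11.3%, from 11.1%) and the median of 1 read held. With at least 2 reads, 14558 records were left, with 4.12% tagged, 43.0% in both libraries, a median of 3 reads, 45.5% sharing a site, 28.7% with contigs and 4.60% equal to an intron. With the deposited fraction at 0.1 or less, these became 2843 records, 13.1%, 95.6%, 15 reads, 79.0%, 50.2% and 14.0%. Leaving out 1 library gave 29871 to 32665 records, with 1.83% to 2.00% tagged and the median at 1 read. Of these, 27.7% to 27.9% shared a site, 20.9% to 21.4% had contigs and 2.03% to 2.27% equalled an intron. The share that also had reads in the library left out was 19.2% to 20.9%, which is not a result of 1 library alone. Counting only shorter junctions that were tagged, 9.09% shared a site, and only those with at least 10 reads, 11.1%. Contigs within 10 bases gave 19.6% and on either strand 28.4%. Lengths within 2 bases gave 1.62%, and the opposite strand 0.0178%. Each filter removes records by its own construction. No paired analysis was possible because there is 1 group.

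Most untagged members rest on 1 read, and at this depth a count of 0 in a library does not show that a junction was absent there. The labels do not settle whether the 2 libraries share an animal.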

Other observations

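Some untagged long junctions were seen in 1 library only. These were chosen after their values were seen, among untagged records with at least 20 reads. A 113341-base record whose acceptor end was named Ly6f, of the Ly6 surface protein family, had 266 reads in library 1 and 0 in library 2. A record from Cyp4a12a to Cyp4a12b, copies of a fatty acid hydroxylase on chromosome 4, had 36 and 0. In the other direction, a 306696-base record on chromosome 4 had 0 and 162 reads, a 119871-base record at chr7:39185741-39305611 had 0 and 97, and a 199635-base record on chromosome 13 had 0 and 67. The other records among the 12 with the most unequal counts were all seen in library 2 only, with 28 to 52 reads. The epididymal marker Crisp1 stood at 454 TPM in library 1 and 0.20 in library 2, and skeletal muscle markers summed to 18.8 and 1.88 TPM. Their part in these differences was not tested.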
